A study of Mus musculus with 8 samples.

Results

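Messenger RNA of 10 mouse genes of serine synthesis and of the amino-acid response led by the transcription factor ATF4 was followed in white adipose tissue of Ad/NICD and WT mice, where NICD is the usual name of the Notch intracellular domain, the active part of that receptor. The genes are Phgdh, Psat1, Psph, Shmt2, Cth, Asns, Chac1, Atf4, Trib3 and Ddit3. They were found by looking up each probe's accession in RefSeq, which gave 15 probes, and each gene stood for itself with its brightest probe. They are 10 of 25093 gene names kept on the arrays, of which 15825 have a RefSeq symbol. All 10 passed the filter on dim probes, and all 15 probes were well above background in all 8 samples. The genes were selected on their ratios of Ad/NICD over WT in these same samples, with Atf4 higher and Phgdh, Psat1, Chac1, Cth and Asns lower. Those ratios are therefore given as a description, and no test of them is read as a result.

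The 2 groups were Ad/NICD, with 4 samples, and WT, with 4 samples, all of white adipose tissue. The mice were 5 weeks old, of strain 129 × C57BL/6, and ate regular chow. The labels call the 4 samples of a group biological replicates. Which promoter or Cre drives the domain in Ad/NICD mice, which fat depot was taken and the sex of the mice are not given in the labels and files used here. Each of 4 arrays with 2 colours carried 1 Ad/NICD and 1 WT sample with the same replicate number. Red (Cy5) was taken as Ad/NICD and green (Cy3) as WT. This is the likely direction, because the authors' value table has it so and the labelling protocol gives Cy3 to controls. The tag of each sample's dye gives the reverse. Were the tags right, all signs below would turn and the group names would swap. Dyes were not swapped, so a dye bias of a probe cannot be told apart from genotype.

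Serine is built from an intermediate of glycolysis by PHGDH, PSAT1 and PSPH in turn, and SHMT2 passes a carbon of serine to folate in mitochondria while making glycine. CTH makes cysteine with carbon and nitrogen that come from serine, ASNS makes asparagine, and CHAC1 breaks down glutathione. When amino acids are short or the endoplasmic reticulum is stressed, kinases phosphorylate the initiation factor eIF2 alpha, which raises translation of the Atf4 message. ATF4 protein then binds composite elements in many of these genes, so its activity depends on translation and cannot be read from the level of its messenger RNA alone. White fat takes part in glycolysis, amino acid uptake and glyceroneogenesis, pathways next to serine synthesis.

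Promoters are shown because these genes share a regulator, whose composite element has the core TGATGNAA. The sequences are from RefSeq (GRCm38.p6) and run from 250 bases before to 50 bases after the annotated start. RefSeq promoters were matched for 9 of the 10 genes, all but Cth. The core was searched on both strands, and Asns, Chac1 and Trib3 had it. Of all 32851 promoters in the same table, 3.97% had it. The promoter of Asns (chr6:7693160-7693459, minus strand), of Chac1 (chr2:119350992-119351291, plus strand) and of Trib3 (chr2:152344011-152344310, minus strand) are given with the match in capitals, and that of Phgdh (chr3:98339920-98340219, minus strand), in which these letters do not occur, is given beside them.
Asns: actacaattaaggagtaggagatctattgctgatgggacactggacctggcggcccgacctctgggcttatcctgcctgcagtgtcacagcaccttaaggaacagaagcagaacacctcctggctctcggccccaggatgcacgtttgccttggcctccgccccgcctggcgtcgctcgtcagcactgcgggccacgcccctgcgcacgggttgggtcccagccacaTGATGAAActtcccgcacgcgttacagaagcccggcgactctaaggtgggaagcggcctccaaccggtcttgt
Chac1: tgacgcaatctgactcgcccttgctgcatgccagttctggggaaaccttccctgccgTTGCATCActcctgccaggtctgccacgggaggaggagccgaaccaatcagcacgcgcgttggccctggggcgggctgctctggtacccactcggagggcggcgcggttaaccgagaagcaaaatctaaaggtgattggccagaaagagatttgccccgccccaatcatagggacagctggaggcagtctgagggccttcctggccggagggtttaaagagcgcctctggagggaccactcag
Trib3: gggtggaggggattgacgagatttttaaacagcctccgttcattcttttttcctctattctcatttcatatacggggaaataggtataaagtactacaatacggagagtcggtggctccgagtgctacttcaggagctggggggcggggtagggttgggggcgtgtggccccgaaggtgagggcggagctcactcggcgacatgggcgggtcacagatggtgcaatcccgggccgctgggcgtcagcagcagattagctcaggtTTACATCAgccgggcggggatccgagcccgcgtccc
Phgdh: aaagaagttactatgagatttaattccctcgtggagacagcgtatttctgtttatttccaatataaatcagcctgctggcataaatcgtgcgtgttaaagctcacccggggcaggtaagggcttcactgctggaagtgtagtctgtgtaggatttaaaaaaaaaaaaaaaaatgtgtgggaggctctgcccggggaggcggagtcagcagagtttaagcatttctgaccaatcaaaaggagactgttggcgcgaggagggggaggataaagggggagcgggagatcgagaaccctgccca
Counted from the annotated start, the match lay at -23 to -16 in Asns, at -193 to -186 on the opposite strand in Chac1 and at 15 to 22 on the opposite strand in Trib3. The promoters of Phgdh, Psat1, Psph, Shmt2, Atf4 and Ddit3 had no match in this window. The CCAAT box, a common promoter element searched on both strands, was found in 6 of the 9 genes and in 37.4% of all promoters. For both elements a gene was counted when any of its promoters held a match, and the 9 genes had 10 promoters. Of the 12532 measured gene names with a promoter, 5283 had the box. Across the 380 gene names measured here with the TGATGNAA core, the median log2 ratio of Ad/NICD over WT was -0.020, which was also the median of all 12532 gene names with a promoter in the table.

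Levels below are log2 signals of 1 channel after background correction, loess and scaling of brightness between arrays, and ratios are log2 of Ad/NICD over WT on 1 array. Between 58.1% and 68.6% of probes were well above background in a channel. Xist, transcribed from the inactive X, lay between 10.15 and 10.45 in the Ad/NICD samples of replicates 1 to 3 and between 10.19 and 10.27 in their WT samples. In replicate 4 it was 5.87 in Ad/NICD and 6.12 in WT, and the Y-linked gene Ddx3y was at 9.55 and 9.95 there, so the pair of replicate 4 had the male pattern. All 10 adipocyte markers (Adipoq, Plin1, Fabp4, Cidec, Cfd, Lep, Retn, Lipe, Pparg and Pnpla2) were well above background in all 8 samples.

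Of the 10 genes, 5 were lower in Ad/NICD on all 4 arrays, namely Phgdh, Psat1, Cth, Asns and Chac1, and 1 was higher on all 4, Atf4. The other 4, Psph, Shmt2, Trib3 and Ddit3, had mixed signs. Over all gene names, 13.3% were lower and 11.2% higher on 4 of 4 arrays. The levels of the 2 groups did not overlap for the same 6 genes, against 5.53% of all gene names lower without overlap and 4.25% higher without overlap. The mean ratio was below 0 for 7 of the 10 genes, against 51.6% of all gene names. In the limma fit over all gene names 12 passed an adjusted p of 0.05, or 0.0478% (0.0199% lower and 0.0279% higher). Among them were 0 of the 10 genes. The median ratio of the 10 genes was -0.43, and that of all gene names was -0.0059. Since these ratios chose the genes, nothing is read from these shares.

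**Figure D1:**
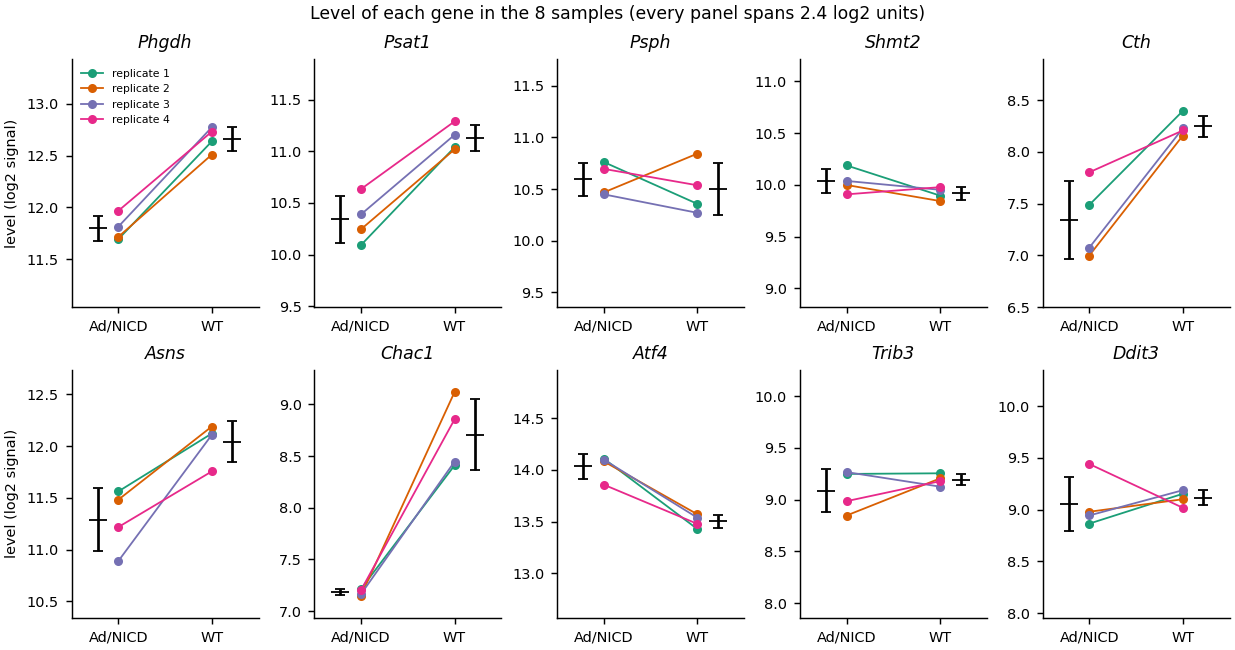
Level (log2 signal, vertical axis) of each of the 10 genes in the 4 Ad/NICD samples (left) and the 4 WT samples (right), with a line joining the samples of 1 array and black bars for the mean and SD of each group. Each panel spans the same range. Chac1 lay between 7.15 and 7.22 in Ad/NICD and between 8.41 and 9.12 in WT, while Shmt2 and Trib3 were close in both groups.

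Phgdh, phosphoglycerate dehydrogenase, takes the first step into serine synthesis. Its level was 11.69, 11.71, 11.81 and 11.97 in Ad/NICD replicates 1 to 4, against 12.64, 12.51, 12.78 and 12.73 in WT replicates 1 to 4. All 4 Ad/NICD samples lay below all 4 WT samples, with little spread inside either group. The ratios on the 4 arrays were -0.95, -0.80, -0.96 and -0.77, with a mean of -0.87 ± 0.05 (SE, n = 4 arrays), a fold of 0.548. A second probe, with means of 11.07 ± 0.21 in Ad/NICD and 11.72 ± 0.12 in WT (SD, n = 4), had a mean ratio of -0.65 ± 0.093 (SE, n = 4) and did not overlap between groups either.

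Psat1, phosphoserine aminotransferase, takes the next step and uses glutamate as the nitrogen donor. It had 10.09, 10.25, 10.39 and 10.63 in Ad/NICD samples, against 11.04, 11.02, 11.16 and 11.29 in WT samples. The groups did not overlap, and the sample of replicate 4 was highest in both. Its ratios were -0.95, -0.77, -0.77 and -0.65, with a mean of -0.78 ± 0.06 (SE, n = 4), a fold of 0.58. The second probe of Psat1 was far dimmer, with a mean of 6.73 ± 0.12 in Ad/NICD and 7.26 ± 0.071 in WT (SD, n = 4). Its mean ratio was -0.53 ± 0.045 (SE, n = 4), in the same direction on all 4 arrays.

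Psph, the phosphatase that releases serine, had no common sign over the 4 arrays, unlike the genes of the 2 steps before it. It had 10.76, 10.47, 10.45 and 10.69 in Ad/NICD samples, against 10.36, 10.84, 10.27 and 10.54 in WT samples, and the groups overlapped. Its ratios were 0.40, -0.37, 0.18 and 0.16, with a mean of 0.092 ± 0.16 (SE, n = 4). The second Psph probe pointed the other way, at -0.30 ± 0.15 (SE, n = 4), and was higher in Ad/NICD on 1 of 4 arrays, so these probes give no common direction.

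Shmt2, the mitochondrial serine hydroxymethyltransferase, had 10.19, 9.998, 10.04 and 9.91 in Ad/NICD samples, against 9.90, 9.84, 9.95 and 9.98 in WT samples. The groups overlapped, and the mean ratio was 0.12 ± 0.075 (SE, n = 4), with -0.07 on the array of replicate 4. When each array was centred on its median in place of loess, Shmt2 had -0.40 and Psph -0.42, under which all gene names had a median of -0.32.

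Cth, cystathionine gamma-lyase, makes cysteine at the end of transsulfuration. Its level was 7.49, 6.999, 7.07 and 7.80 in Ad/NICD samples, against 8.40, 8.16, 8.23 and 8.21 in WT samples. The WT samples were close together and the Ad/NICD samples were spread, with replicate 4 the nearest to WT. The ratios were -0.91, -1.16, -1.15 and -0.40, with a mean of -0.91 ± 0.18 (SE, n = 4), a fold of 0.534. The second Cth probe had -1.14, -1.27, -1.24 and -0.25, with a mean of -0.98 ± 0.24 (SE, n = 4), and it too was nearest to 0 in replicate 4.

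Asns, asparagine synthetase, whose promoter above holds the core in its forward form, had 11.56, 11.48, 10.89 and 11.22 in Ad/NICD samples, against 12.12, 12.19, 12.11 and 11.76 in WT samples. No Ad/NICD sample reached the lowest WT sample, which was replicate 4. The ratios were -0.56, -0.71, -1.22 and -0.54, with a mean of -0.76 ± 0.16 (SE, n = 4) and -0.60 without replicate 3.

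Chac1, a gamma-glutamyl cyclotransferase that degrades glutathione, had the largest ratio of the 10 genes in size. It had 7.22, 7.15, 7.17 and 7.20 in Ad/NICD samples, against 8.41, 9.12, 8.45 and 8.85 in WT samples. The Ad/NICD samples were nearly equal, with an SD of 0.031, while the WT samples had an SD of 0.34. The ratios were -1.19, -1.97, -1.28 and -1.65, with a mean of -1.52 ± 0.18 (SE, n = 4), a fold of 0.348. Its Ad/NICD signal was dim, with a scanner median of 58.5 to 87 over a red background of 19 to 20. The background correction adds an offset of 50, which pulls ratios of dim probes toward 0, and with an offset of 0 the mean ratio was -2.01 for Chac1 and -1.22 for Cth.

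Atf4, the activator itself, had the opposite sign on its brightest probe. Its level was 14.11, 14.08, 14.10 and 13.86 in Ad/NICD samples, against 13.43, 13.57, 13.54 and 13.48 in WT samples, and the groups did not overlap. The ratios were 0.68, 0.51, 0.56 and 0.38, with a mean of 0.53 ± 0.062 (SE, n = 4), a fold of 1.45. The second Atf4 probe had 8.70, 8.62, 8.38 and 8.76 in Ad/NICD samples, against 8.43, 8.47, 8.39 and 8.53 in WT samples. On that probe the groups overlapped, the ratios were 0.27, 0.14, -0.01 and 0.23, and the mean was 0.16 ± 0.061 (SE, n = 4). Median centring gave 0.22 for the brightest probe, which is 0.54 above the median of all gene names under that scaling. Which part of the transcript each probe lies in is not given in the files used here.

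Trib3, a pseudokinase that ATF4 induces and that in turn restrains it, had 9.25, 8.85, 9.27 and 8.99 in Ad/NICD samples, against 9.25, 9.21, 9.13 and 9.18 in WT samples. The groups overlapped, the ratios ran from -0.36 to 0.14, and the mean was -0.10 ± 0.11 (SE, n = 4). The promoter of Trib3 holds the same core as those of Asns and Chac1, at the positions given above. Ddit3, which encodes the stress factor CHOP, had 8.86, 8.98, 8.94 and 9.44 in Ad/NICD samples, against 9.15, 9.10, 9.19 and 9.02 in WT samples. It was lower in Ad/NICD in replicates 1 to 3, at -0.29, -0.12 and -0.24, and higher in replicate 4, at 0.42. The mean was -0.058 ± 0.16 (SE, n = 4), and -0.22 without replicate 4.

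**Figure D2:**
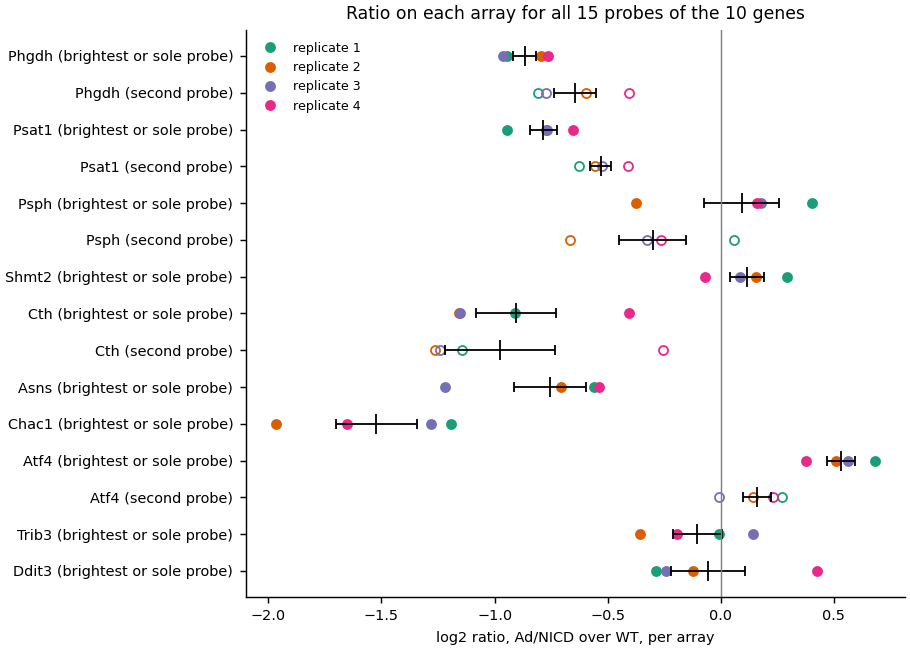
Log2 ratio of Ad/NICD over WT on each of the 4 arrays (horizontal axis) for all 15 probes, with filled points for the probe that stands for a gene, open points for a second probe, and black bars for the mean and SE. Both probes of Phgdh, Psat1 and Cth lie below 0 on every array. The probes of Psph differ in the sign of their mean, and those of Atf4 differ in size.

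Signs differed within a pathway. In serine synthesis Phgdh and Psat1 were lower on every array. Psph was not on either of its probes, whose mean ratios differed in sign (0.092 and -0.30). Among the 3 regulators Atf4 was higher while Trib3 and Ddit3 had mixed signs. Fits of both channels separately use the ratios that chose the genes too. Passing in them was partly set in advance, so no count of the 10 genes is given for them.

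The other genes of the pathway were taken from 8 lists of 108 genes, of which 105 were tested. Sds and Fgf21 did not pass the filter on dim probes, and no probe was matched to Pycr1. In the limma fit of the ratios 0 of the 105 passed over all gene names, and the smallest adjusted p was 0.0869, for Slc43a1. An unadjusted p under 0.05 was found for 37 of the 105 (35.2%), 28 lower and 9 higher, against 15.2% of all gene names. With 1 sign on all 4 arrays, 32 were lower and 13 higher, or 42.9% of the lists against 24.5% of all gene names. Groups did not overlap for 19 lower and 6 higher genes, or 23.8%, against 9.78% of all gene names. Their median ratio was -0.076. The lists were chosen with earlier results of these data known, so nothing is read from these shares. In the same limma fit, 42.4% of the cell type marker genes described below had an unadjusted p under 0.05.

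Amino acid transporters linked to ATF4 differed in sign. Slc43a1, a carrier of large neutral amino acids, had -1.26, -1.77, -1.45 and -1.03 on the 4 arrays, with a mean of -1.38 ± 0.16 (SE, n = 4). With both channels fitted separately it passed over all gene names. Its limma adjusted p was 0.00299 with the array as a random replicate block and 0.00483 without it. Of all gene names, 1.99% passed with the block and 1.03% without it, a fit that ignores the shared array. In the limma fit of the ratios Slc43a1 had adjusted p = 0.0869. Slc38a2, which brings in glutamine and alanine, had -0.39 ± 0.11, and Slc3a2, the heavy chain of several exchangers, had -0.31 ± 0.072. Slc1a4, a carrier of serine, alanine and cysteine, had 0.49 ± 0.082 and was higher on 4 of 4 arrays. Under median centring it had -0.022, where all gene names had a median of -0.32. Of the 9 transporters 4 were lower and 2 higher on all 4 arrays, against 13.3% lower and 11.2% higher of all gene names.

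Enzymes that handle alanine, glutamine and asparagine had some of the lowest ratios. Gpt2, the mitochondrial alanine aminotransferase, had -1.56, -2.22, -1.97 and -0.84, with a mean of -1.65 ± 0.30 (SE, n = 4), and its cytosolic partner Gpt had -0.89 ± 0.23. Gpt2 did not pass in the limma fit of the ratios, with adjusted p = 0.12. It passed in the separate-channel fits of limma, with adjusted p = 0.0113 with the random replicate block and 0.019 without it. Of all gene names, 1.99% passed with the block and 1.03% without it, and the fit without it ignores the shared array. Glul, glutamine synthetase, had -1.02 ± 0.28. Aspg, an asparaginase, had a mean of -1.83 ± 0.92, and its single ratios ran from -4.39 in replicate 2 to -0.038 in replicate 1. Without replicate 2 its mean was -0.97. In this list of 9 measured genes 4 were lower and 2 higher on all arrays, against 13.3% and 11.2% of all gene names. Aldh18a1, which starts proline synthesis, was at 0.64 ± 0.21.

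In transsulfuration, cysteine and glutathione metabolism, 4 of 13 genes were lower and 3 higher on all arrays, against 13.3% and 11.2% of all gene names. Mpst, a sulfurtransferase that uses a product of cysteine, had -0.66 ± 0.13, and Csad, which leads cysteine toward taurine, had -0.77 ± 0.21. Neither passed in the limma fit of the ratios, with adjusted p = 0.13 for Mpst and 0.161 for Csad. Mpst passed in both separate-channel limma fits (adjusted p = 0.0193 with the random replicate block and 0.0289 without it). Csad passed with the random replicate block alone (limma adjusted p = 0.0472). Of all gene names, 1.99% passed with the block and 1.03% without it, and the fit without it ignores the shared array. Gclc, the catalytic subunit of the first enzyme of glutathione synthesis, had -0.44 ± 0.042, and Gss, the second enzyme, had 0.53 ± 0.16. Under median centring Gss had 0.077, where all gene names had a median of -0.32. Cbs, which makes the substrate of Cth, had -0.63, -0.85, -0.99 and 0.85 on the 4 arrays.

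Folate enzymes showed no common direction, with a median of 0.026 over 14 genes, 2 lower and 3 higher on all arrays. Of all gene names, 13.3% were lower and 11.2% higher on all arrays, shares that stand beside the next list too. Aldh1l1, a cytosolic folate dehydrogenase, had -1.04 ± 0.33. Mthfd2, the mitochondrial enzyme that follows Shmt2 and is itself induced by ATF4, had 0.34 ± 0.12. Under median centring Mthfd2 had -0.073, where all gene names had a median of -0.32. Mthfd1, a cytosolic folate enzyme, had -0.17 ± 0.012. Among 8 genes of glycine cleavage and of serine or glycine breakdown, 3 were lower and 0 higher on all arrays. These were Gcat at -0.46 ± 0.16, Srr, which makes D-serine, at -0.28 ± 0.13, and Gldc, a subunit of the glycine cleavage system, at -0.27 ± 0.11. Without replicate 2 the mean was -0.16 for Srr and -0.17 for Gldc.

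Of 16 measured stress regulators linked to ATF4, 5 were lower and 1 higher on all arrays. Over all gene names the shares were 13.3% lower and 11.2% higher, which stand beside the lists that follow too. Eif4ebp1, a brake on translation, had -0.75 ± 0.14, Stc2, a secreted protein induced by stress, had -0.54 ± 0.18, Vldlr had -0.43 ± 0.18 (-0.28 without replicate 2), and Cebpg, a partner of ATF4 at composite elements, had -0.37 ± 0.14. Upstream of ATF4, the 15 kinases and factors of eIF2 had a median of -0.029, with 2 lower and 1 higher on all arrays. Eif2ak4, the kinase GCN2 that senses uncharged transfer RNA, had -0.23 ± 0.054, and Eif2ak3, the kinase PERK of the endoplasmic reticulum, had 0.22 ± 0.035. Under median centring Eif2ak3 had -0.27, where all gene names had a median of -0.32. Eif2b1 had -0.20 ± 0.024. The list of cytosolic transfer RNA synthetases, 21 genes with the exporter Xpot, had a median of -0.055, with 8 lower and 1 higher on all arrays. The lowest was Nars, which charges asparagine, at -0.24 ± 0.082, and Qars, Gars and Dars lay between -0.22 and -0.17, with Gars at -0.11 without replicate 2.

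**Figure D3:**
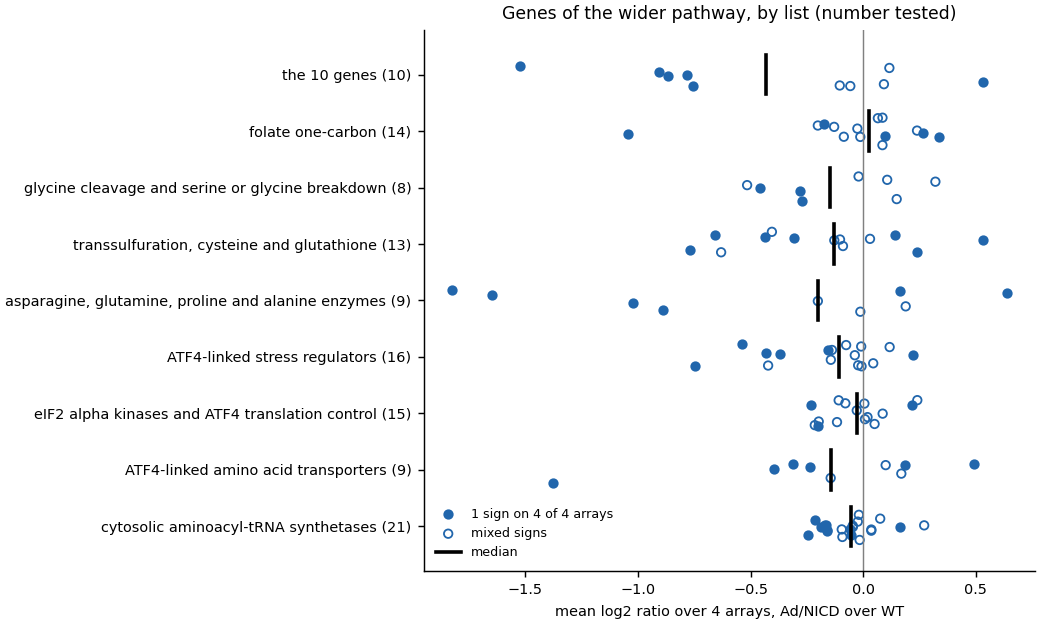
Mean log2 ratio of Ad/NICD over WT over 4 arrays (horizontal axis) for each measured gene of the 10 genes and of the 8 lists, with filled points for genes of 1 sign on all arrays and black lines for medians. The list medians lie between -0.20 and 0.026, and single genes such as Gpt2 and Slc43a1 lie far below.

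Levels of cell type markers are given beside these ratios. Adipocyte markers, summed, lay between 16.90 and 17.79 (log2 of summed signal) in Ad/NICD samples and between 17.83 and 18.37 in WT samples, and 7 of 10 had a mean ratio below 0. In whole tissue, fewer cells of a type and less RNA per cell cannot be told apart. The median ratio of the adipocyte list was -0.25, -0.75, -1.03 and -0.012 in replicates 1 to 4. In replicate 4 its single markers went both ways, from -0.60 for Retn and -0.47 for Lipe to 0.18 for Pparg and 0.37 for Fabp4.

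Skeletal muscle markers, of which 8 of 8 were below 0, summed to between 10.001 and 12.78 in Ad/NICD and between 11.11 and 16.83 in WT. Their median ratio was -0.75, -2.06, -0.63 and -3.78 in replicates 1 to 4. Mammary epithelium markers, with 7 of 7 measured below 0, summed to between 9.39 and 14.79 in Ad/NICD and between 9.33 and 14.58 in WT, with replicate 4 lowest in both groups. Endothelial markers had 6 of 6 below 0 and sums of 12.72 to 13.47 in Ad/NICD and 13.53 to 13.91 in WT. Fibroblast and progenitor markers had 7 of 7 above 0 and sums of 16.00 to 16.82 in Ad/NICD and 15.12 to 16.74 in WT, and macrophage markers had 4 of 6 above 0 and sums of 14.30 to 14.93 in Ad/NICD and 14.15 to 14.93 in WT. Erythroid markers had 4 of 4 below 0, B and T cell markers 5 of 7, and acinar pancreas markers 3 of 4. Of the 6 acinar markers 2, Cpa1 and Pnlip, were not above the filter. These are signs of mean ratios, which were below 0 for 51.6% of all gene names. Lower on all 4 arrays were 8 muscle, 2 mammary, 4 endothelial, 3 erythroid and 1 acinar markers, against 13.3% of all gene names. Higher were 2 fibroblast and progenitor markers and 1 macrophage marker, against 11.2%. The list median was 0.24 for mammary epithelium in replicate 3 and -0.64 for fibroblast and progenitor in replicate 1. In the limma fit of the ratios 0 of 59 marker genes passed over all gene names, and 25 (42.4%) had an unadjusted p under 0.05, against 15.2% of all gene names. With the array as a random replicate block 2 passed, 1 adipocyte and 1 endothelial marker. The part of these cells in the ratios of the 10 genes was not tested.

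**Figure D4:**
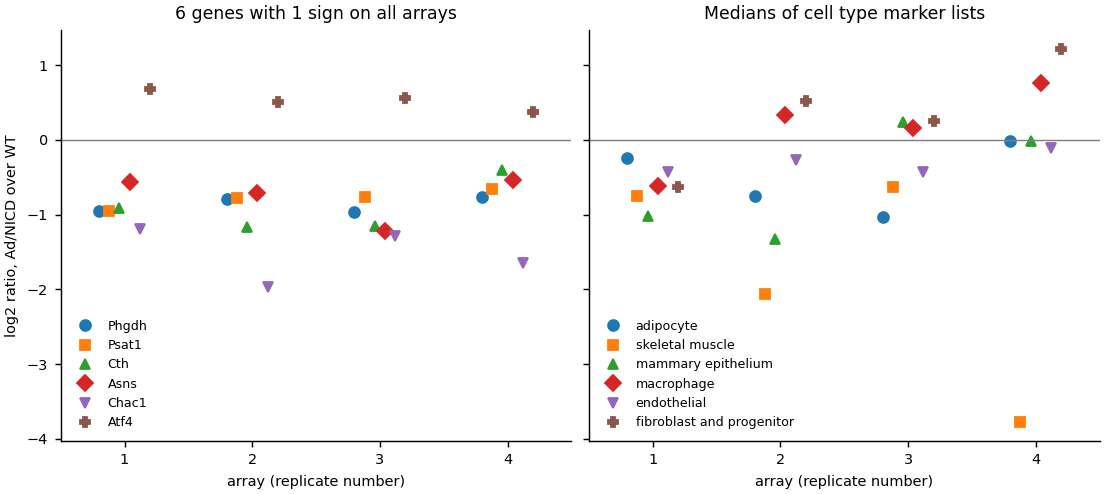
Left, log2 ratio of Ad/NICD over WT on each array for the 6 genes with 1 sign on all arrays. Right, median log2 ratio of 6 cell type marker lists on the same arrays and the same vertical axis. Phgdh lies between -0.96 and -0.77 and Chac1 between -1.97 and -1.19. The muscle median lies between -3.78 and -0.63, and the fibroblast and progenitor median between -0.64 and 1.22.

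The patterns most like those of Atf4 and Phgdh were sought by Pearson correlation of the levels over the 8 samples, as a description only. For Atf4 the 5 nearest were Rpl36, a ribosomal protein, with 0.987, Pbld1 with 0.985, Akr1cl, of the aldo-keto reductase family, with 0.984, Stk38l, a kinase, with 0.979, and 1 probe without a gene symbol with 0.984. For Phgdh the 5 nearest were all probes without a RefSeq symbol, with correlations between 0.987 and 0.995 and mean ratios between -0.97 and -0.67. The 8 samples share 4 arrays and differ by genotype, which alone gives genes with separate groups a high correlation.

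**Figure D5:**
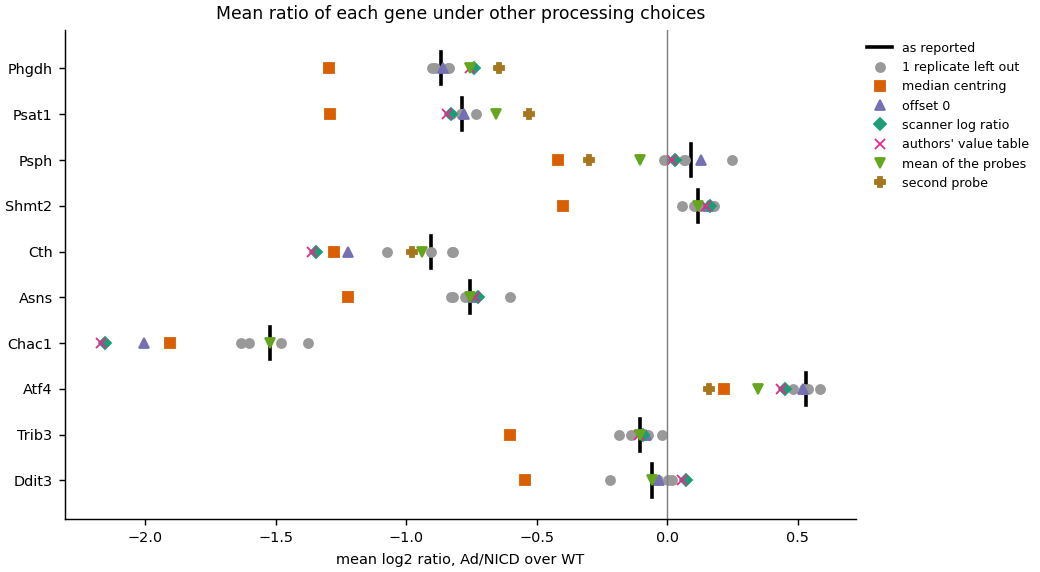
Mean log2 ratio of Ad/NICD over WT (horizontal axis) of each of the 10 genes as reported (black line) and under other processing choices (symbols). Phgdh, Psat1, Cth, Asns and Chac1 stay below 0 and Atf4 above 0 under every choice shown, while Psph, Shmt2 and Ddit3 cross 0.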

How the data were processed

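Total RNA of 4 Ad/NICD and 4 WT samples was labelled with 2 dyes and read on 4 Agilent arrays. The deposited scanner tables hold the red and green intensity of each spot, its background and a log10 ratio of red over green, made with Agilent Feature Extraction 11.5 per the submitters' processing notes. The Ad/NICD and WT tables of a replicate held the same values and were used as 1 array. The authors' value table, on a log2 scale, had its Ad/NICD columns match red and its WT columns match green on all 4 arrays. Its column medians lay between -3.82 and -3.51 and its 75th percentiles near 0. The deposited log10 ratio was within 0.00714 of the ratio of the processed signals where both were over 50. The labels and files used here state no more of how the authors made the value table.

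From the median foreground and background intensity as deposited, since no mean foreground was among the columns used, background was corrected by normexp with an offset of 50. Each array was then normalized with limma 3.58.1 in R 4.3.3 by loess, in which control spots had no weight, and channel levels were scaled between arrays by Aquantile. Of 55681 probes that are no controls, 34390 were kept because 3 or more of the 4 arrays had them well above background in either colour. The flag for this was rebuilt on the array of replicate 1, and the same rebuilding matched 97.6% to 99.98% of spots on the other arrays. Symbols came from RefSeq through probe accessions, for 28026 probes and not for 27655. The brightest kept probe stood for each of 25093 gene names.

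The ratio of Ad/NICD over WT was tested against 0 with limma's lmFit and eBayes over all gene names, adjusted by Benjamini-Hochberg and called at 0.05. The fit was tested on simulated ratios with known changes, drawn independently for each gene and array. They held no dye bias and no selection of genes, so that test says nothing on either. Samples with the same number share an array, so the ratio keeps them as pairs. Their deviations from the group means correlated at 0.17, 0.17, 0.56 and 0.53 in replicates 1 to 4. The highest correlation with a sample of another number was 0.29, 0.14, 0.29 and -0.018, which in replicate 1 is above that of the pair. P-values measure the spread between the 4 pairs, and that number of arrays limits the precision. The 10 genes, the pathway lists and the marker lists were chosen with earlier results of these data known. Of each pathway list the text names the genes past the threshold and up to 4 with the largest mean ratio in size among those of 1 sign on all arrays, 1 of which is not reported here, and Aldh18a1, Cbs and the genes of the closing observations were chosen after their values were seen. Alternatives were median centring, the scanner's ratio, an offset of 0, no filter, the mean of probes, trended and robust eBayes, separate channels with and without the array as a block, the authors' value table, each replicate left out, and, chosen after seeing the data, the dimmer probe.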

Additional observations from a re-analysis of the deposited data

Results flagged for a closer look

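Of 30 groups of 4 values examined for a sample far from the others, 1 was found. The level of Atf4 in Ad/NICD replicate 4 was 13.86, and the other 3 Ad/NICD samples lay between 14.08 and 14.11. Its gap to the nearest of them was 0.895 of the whole range of the group, above Dixon's limit for 4 samples. It was still above the highest WT sample, at 13.57, and without replicate 4 the mean log2 ratio of Atf4 was 0.58. Replicate 4 is also the pair with the male pattern of Xist and Ddx3y, and the part of sex in this level was not tested. The WT sample of that pair was at 13.48, within the WT range of 13.43 to 13.57. Chance alone finds such a sample in about 1 in 20 groups.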

How the results depend on the processing

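The number of gene names past the threshold, 12 as reported, depended on every alternative but the mean of the probes of a gene, which gave 10. It was 0 with median centring, with no filter on dim probes and with trended and robust eBayes, where limma gave 9613, 5092 and 2896 gene names with an unadjusted p under 0.05. It was 4 with the scanner's ratio, 19 with an offset of 0 and 3 with the authors' value table. With 1 replicate left out it ran from 0 to 43, at 0 without replicate 1, 2 or 3 (3565, 2535 and 1989 with an unadjusted p under 0.05) and at 43 without replicate 4. The fits that leave out 1 pair have fewer arrays, and the cause of the other differences was not tested. For the pairing, separate channels gave 258 gene names without the replicate block and 500 with the array as a random replicate block, where the estimated correlation within a spot was 0.159. The count of wider pathway genes, 0 as reported, was 3 without the replicate block and 4 with the random replicate block, and 0 under the other alternatives.

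Median centring turned 3 of the 30 named pathway genes round, to -0.073 for Mthfd2, -0.27 for Eif2ak3 and -0.022 for Slc1a4, while it took the median of all gene names to -0.32. Phgdh, Psat1, Cth, Asns, Chac1 and Atf4 kept their sign under every alternative run. Psph changed sign in 4 of 14 settings, Ddit3 in 4 of 13 and Shmt2 in 1 of 13. Chac1 ran to -2.17 in the authors' value table, and Cth to -1.36. The channels were dim, with a median foreground of 67 to 79 over a background of 45 to 46 in green and of 31 to 40 over 19 to 20 in red, which limits ratios of dim probes most.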

Other observations

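Many of the 16 measured stress regulators had 1 array of opposite sign, among them Bbc3, Cebpb, Gdf15, Nfe2l2 and Ppp1r15a. Atf3, Nupr1 and Ddit4 were picked here after their values were seen, and nothing is read from the pattern. On the array of replicate 4, Ad/NICD over WT was 1.04 for Atf3 and 0.70 for Nupr1 on the log2 scale, as it was 0.42 for Ddit3. On the other 3 arrays Atf3 lay between -0.57 and -0.13, and Nupr1 between -0.52 and -0.051. On the array of replicate 1, Ddit4, an inhibitor of mTORC1 signalling, had 0.98, and on the other 3 arrays it lay between -1.06 and -0.75. None of Atf3, Nupr1 and Ddit4 passed in limma over all gene names, where their adjusted p lay between 0.634 and 0.991.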
